A study of Mus musculus with 4 samples.

Results

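Mast cells and basophils are rare blood-derived cells that bind IgE through a high-affinity surface receptor and release histamine and proteases from their granules. The 8 genes described here, Hdc, Cpa3, Ms4a2, Fcer1a, Mcpt8, Gata2, Kit and Prss34, are commonly used to recognise these cells, and they were taken as the probe sets annotated with those symbols. Each gene had 1 probe set, so 8 of 41345 probe sets on each array, or 8 of 17127 named genes, are at issue. Gene expression was measured on 4 microarrays in cells that the study names as mouse type 1 conventional dendritic cells (cDC1), a subset specialised in presenting antigen to CD8 T cells. The arrays came from wild-type (WT) and XCR1-deficient (KO) mice of the C57BL/6 strain, 10 weeks old and labelled female. All 4 samples had received LPS at 100 ng/ml, and 1 sample of each genotype had also received recombinant mouse XCL1 at 100 ng/ml, the chemokine that binds XCR1, so no array shows cells without LPS. Treatment was in culture medium. The labels do not name the organ of origin, the isolation, the deleted allele, any pooling of mice or the length of treatment.

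IgE is bound by the alpha chain of its receptor, encoded by Fcer1a, and the beta chain encoded by Ms4a2 amplifies the signal. Kit encodes the receptor for stem cell factor, on which mast cells depend for survival and which blood cell progenitors carry too, and Gata2 encodes a transcription factor of both mast cell and basophil development and of blood stem cells. Hdc encodes histidine decarboxylase, the enzyme that makes histamine, and is also expressed by some other myeloid cells. Cpa3 encodes the mast cell carboxypeptidase, and Mcpt8 and Prss34 encode serine proteases stored in basophil granules.

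All values below are log2 signals as the authors deposited them, or differences between them. Each group is 1 array, so the differences carry no replicate spread and were not tested, and the number of arrays limits the precision. To be counted as higher or lower, a gene had to differ by 1.5-fold or more (0.58 in log2 units) between the arrays compared, with 1 or more of them at or above 5.43, the median of all deposited values. That limit is not a measured background, because the table holds no detection flags. As a yardstick chosen after the values were seen, 1108 probe sets of olfactory receptor genes, mostly silent outside the nose, had mean signals with a median of 3.69 and a 95th percentile of 5.63.

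Pearson correlations between arrays, taken across genes, which are not independent, were 0.983 to 0.993. Xcr1, the deleted gene, gave 6.42 and 7.19 on the WT arrays without and with XCL1, and 5.54 and 5.11 on the KO arrays. Of 9 measured cDC1 markers 8 reached the limit, among them Flt3, Irf8 and Wdfy4 with signals of at least 8.90 on each array. Itgae stayed below it on every array, and Clec9a was not matched to a probe set of 1 symbol. The median KO minus WT difference of the 8, Xcr1 included, was -0.19 with LPS and -0.17 with LPS and XCL1. Over all genes it was -0.05 and -0.04. In each comparison 3 of the 8 were above 0. Sex-linked genes went against the label of female mice. The Y-linked genes Eif2s3y, Uty and Kdm5d gave signals of 7.01 to 8.89 over all 4 arrays, and Xist, the RNA of the inactive X chromosome, gave 7.95 and 7.91 in WT but 4.64 and 4.57 in KO. The array names in the labels also begin with a prefix that differs between the genotypes. An effect of genotype cannot be told apart from one of whatever made Xist differ or of whatever the prefix stands for.

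The promoters of 4 of the genes are shown because Hdc is the member that differed between the genotypes, Kit the brightest, and Ms4a2 and Cpa3 encode an IgE receptor chain and a granule protease whose signals lay near or below the limit. Each is the RefSeq sequence (GRCm38.p6) of the 250 bases before the start listed for the gene in the promoter table used (for Kit, the first of 2), 5′ to 3′ along the gene. Capitals mark GATA motif letters, searched on both strands as AGATAA, with the further forms AGATAG, next TGATAA, and last TGATAG, where GATA factors such as the product of Gata2 can bind.

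Hdc, chr2:126618679-126618928, minus strand: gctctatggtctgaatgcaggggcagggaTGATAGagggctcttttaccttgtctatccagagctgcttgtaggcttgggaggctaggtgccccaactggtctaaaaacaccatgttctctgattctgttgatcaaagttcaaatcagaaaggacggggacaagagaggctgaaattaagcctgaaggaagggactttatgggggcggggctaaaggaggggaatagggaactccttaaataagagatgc

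Kit, chr5:75574737-75574986, plus strand: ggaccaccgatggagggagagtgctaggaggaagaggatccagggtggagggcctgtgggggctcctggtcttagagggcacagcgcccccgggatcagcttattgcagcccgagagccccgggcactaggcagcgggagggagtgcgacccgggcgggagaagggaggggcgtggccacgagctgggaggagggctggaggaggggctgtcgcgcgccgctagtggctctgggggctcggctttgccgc

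Ms4a2, chr19:11623720-11623969, minus strand: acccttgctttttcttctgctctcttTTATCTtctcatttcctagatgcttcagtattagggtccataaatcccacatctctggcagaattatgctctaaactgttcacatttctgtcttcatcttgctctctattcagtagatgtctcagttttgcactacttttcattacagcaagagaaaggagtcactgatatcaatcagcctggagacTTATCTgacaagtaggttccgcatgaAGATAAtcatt

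Cpa3, chr3:20242182-20242431, minus strand: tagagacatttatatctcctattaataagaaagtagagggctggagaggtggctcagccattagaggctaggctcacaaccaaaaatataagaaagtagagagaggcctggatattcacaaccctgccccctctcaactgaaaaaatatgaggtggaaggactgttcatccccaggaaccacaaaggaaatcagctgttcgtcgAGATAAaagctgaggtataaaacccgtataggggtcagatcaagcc

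The Hdc window held 1 such motif, TGATAG, beginning 221 bases before the start. The Ms4a2 window held 3, all AGATAA, of which 1 lies along the gene and 2 on the opposite strand, and the Cpa3 window held 1, beginning 46 bases before the start. Fcer1a and Prss34 each had 1 AGATAA in the same window, beginning 92 and 31 bases before the start. No match was found in the windows of Kit, Gata2 and Mcpt8, which says only that these letters are not there. Of all 32851 RefSeq starts, 26.5% held at least 1 match in a window of this length, against 5 of the 10 starts listed for the members. For 3 or more matches it was 1.35%, against 1 of the 10, that of Ms4a2. Kit and Gata2 have 2 starts each among the 10, and the windows of Kit largely overlap.

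Most of the mast cell and basophil genes gave dim signals, and only Hdc and Kit reached the limit on every array. Cpa3 and Mcpt8 reached it on 2 arrays each, and Fcer1a, Ms4a2, Gata2 and Prss34 on none. The summed un-logged signal of the 6 genes other than Hdc and Kit was 173 and 180 on the WT arrays and 175 and 188 on the KO arrays, without and with XCL1. In such bulk samples fewer cells of a type and less RNA per cell cannot be told apart.

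**Figure D1:**
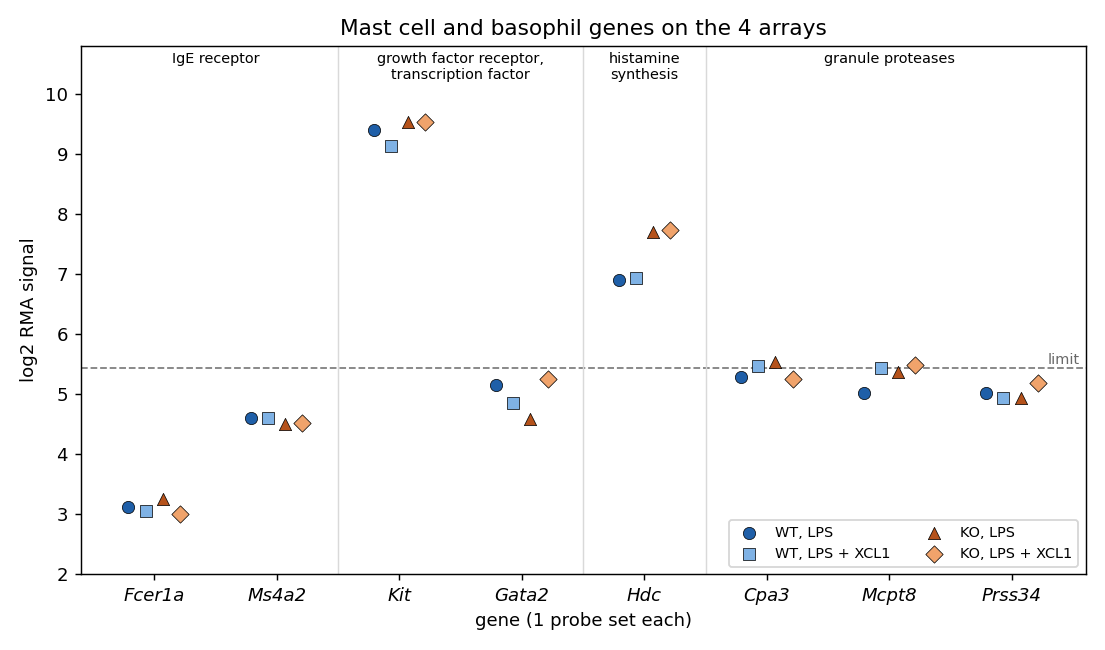
Log2 RMA signal (y axis) of each of the 8 genes (x axis, ordered by role) on each of the 4 arrays, with 1 symbol per array and the limit of 5.43 as a dashed line. Kit lies between 9.13 and 9.54, Hdc lies between 6.91 and 7.73 with both KO arrays above both WT arrays, and the other 6 genes lie at or below about the limit.

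Both IgE receptor subunits were below the limit on all 4 arrays. Fcer1a gave 3.12 in WT with LPS, 3.05 in WT with LPS and XCL1, 3.25 in KO with LPS and 3.002 in KO with LPS and XCL1, all below the median of the olfactory receptor probe sets. Ms4a2 gave 4.60, 4.60, 4.50 and 4.52 in the same order. The 4 arrays spanned 0.25 for Fcer1a, with WT and KO overlapping, and 0.11 for Ms4a2, whose KO signals were both slightly below the WT signals.

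Among the granule proteases, Cpa3 gave 5.29 and 5.47 in WT without and with XCL1 and 5.53 and 5.25 in KO. The WT and KO values overlapped, and XCL1 went with a higher value in WT (0.18) and a lower value in KO (-0.28). Mcpt8 gave 5.02 and 5.44 in WT and 5.38 and 5.48 in KO. Its lowest signal was that of WT with LPS alone, so the difference with XCL1 was 0.42 in WT and 0.10 in KO, and the difference between the genotypes was 0.35 with LPS alone and 0.04 once XCL1 was added. Once dim signals were set to the limit, the XCL1 difference of Mcpt8 in WT was 0.01. Prss34 gave 5.02 and 4.94 in WT and 4.94 and 5.19 in KO, all below the limit. No protease differed 1.5-fold between any pair of arrays compared.

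Gata2, the transcription factor, also stayed below the limit, with 5.16 and 4.84 in WT and 4.59 and 5.26 in KO. Its lowest and highest signals were the 2 KO arrays, and the genotype difference was -0.57 with LPS alone and 0.41 once XCL1 was added. Its range of 0.67 was the widest of the 4 genes that stayed below the limit on every array. Among 4152 named genes with a mean signal within 0.5 of Gata2, taken without regard to the limit, 0.867% differed by as much between the KO arrays.

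Kit, the stem cell factor receptor, was the brightest member. It gave 9.40 in WT with LPS, 9.13 in WT with LPS and XCL1, 9.53 in KO with LPS and 9.54 in KO with LPS and XCL1. The KO arrays nearly coincided and lay above both WT arrays, and the array of WT cells with XCL1 was the lowest. The genotype difference was 0.13 with LPS and 0.40 with LPS and XCL1, both under 1.5-fold. The SD of the same differences over 976 genes of like signal (mean within 0.5) was 0.20 and 0.24. The difference with XCL1 was -0.26 in WT and 0.0040 in KO. In WT it was large beside genes of like signal, whose SD was 0.11 and of which 2.56% differed by as much in either direction, and it rests on a single pair of arrays.

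Hdc was the member that differed by genotype. Its signal was 6.91 in WT with LPS, 6.93 in WT with LPS and XCL1, 7.70 in KO with LPS and 7.73 in KO with LPS and XCL1. The arrays fell by genotype with no overlap, the lower KO signal lying 0.77 above the higher WT signal, and the arrays of 1 genotype differed by at most 0.03. Hdc was 1.73-fold higher in KO with LPS, a log2 difference of 0.79, and 1.74-fold higher with LPS and XCL1, a difference of 0.80. The 2 comparisons share no array, though the labels do not say if a genotype's arrays share mice or a cell preparation. The values ranked 39 of 10778 and 64 of 10686 genes when ordered from the highest difference. Over 2445 genes with a mean signal within 0.5 of Hdc, the SD of these differences was 0.22 and 0.25, and 0.695% and 0.818% differed by as much in either direction.

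Hdc was the 1 member counted between the genotypes, among the 3 or 4 members that could be counted. With LPS 1 of the 3 members tested, Hdc, was higher in KO and none was lower, where 0.965% of all genes were higher and 1.03% lower. With LPS and XCL1 1 of 4, again Hdc, was higher and none was lower, against 1.67% and 1.84% of all genes. In both comparisons 1 of 3 was higher and none lower, against 0.402% and 0.316%. The members were chosen with earlier results of these data known. These counts and the ranks of Hdc therefore describe the values and do not show that the set stands out. Both KO arrays lay above both WT arrays for Hdc and Kit, 2 of the 4 members that reached the limit, and for 18.8% of all genes that did. With each array centred on the median of its genes, which added 0.10 and 0.11 to the genotype differences, the share of all genes that were higher was 1.82% with LPS alone and 3.03% once XCL1 was added, and that with no overlap was 35.4%. In that setting 79.0% and 78.3% of the genes past 1.5-fold were higher in KO, against 48.4% and 47.5% as deposited, and 81.7% against 56.0% in both comparisons. Hdc then differed by 0.90 in each comparison, and Mcpt8 joined the genes with no overlap.

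**Figure D2:**
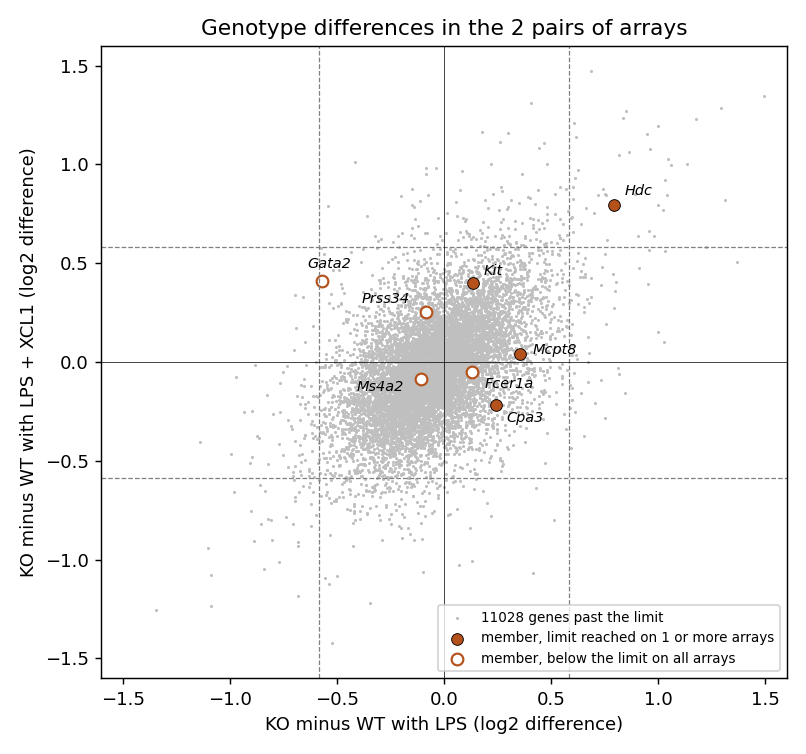
Log2 difference KO minus WT with LPS (x axis) against the same difference with LPS and XCL1 (y axis) for 11028 named genes that reached the limit on at least 1 array (grey; 4 genes lie outside the axes) and for the 8 members, with dashed lines at 1.5-fold. Hdc is the member beyond the lines on both axes, at 0.79 and 0.80, and Gata2, which stayed below the limit, has opposite signs on the axes.

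None of the 4 members that reached the limit differed 1.5-fold with XCL1 in either genotype, while Gata2, below the limit on both KO arrays, differed by 0.67 in KO. In WT 4 members were tested and 0 were higher or lower, against 0.235% and 0.292% of all genes, and in KO 0 of 4 were, against 0.464% and 0.557%. Of all genes past 1.5-fold with XCL1, 44.6% in WT and 45.5% in KO were higher, and 18.8% and 21.4% after centring. Hdc differed by 0.02 with XCL1 in WT and by 0.03 in KO, well within the SD of 0.15 and 0.18 over genes of like signal. The difference between its XCL1 effects, WT minus KO, was -0.0047. For Kit it was -0.27, for Cpa3 0.46 and for Mcpt8 0.32, all under 1.5-fold, where 1.37% of all genes were higher and 1.51% lower by this measure. With dim signals set to the limit, the value of Cpa3 was 0.14 and that of Mcpt8 turned to -0.04. For the other 4 members both arrays of each pair were below the limit. Their XCL1 differences ran from -0.31 to -0.0016 in WT and from -0.25 to 0.67 in KO, the highest in KO being that of Gata2.

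**Figure D3:**
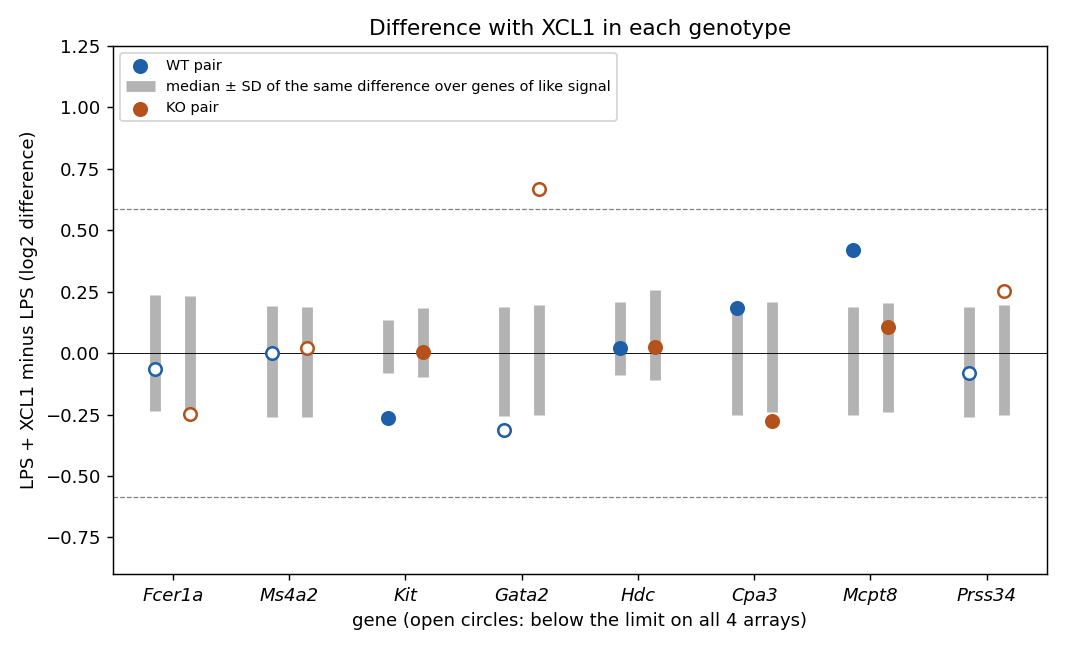
Log2 difference between LPS with XCL1 and LPS alone (y axis) for each member (x axis) in the WT pair (blue) and the KO pair (orange), with grey bars for the median ± SD of the same difference over named genes whose mean signal lay within 0.5 of the member's. Filled circles are members that reached the limit on at least 1 array, all of them within the dashed lines at 1.5-fold. Hdc sits near 0 in both pairs, at 0.02 and 0.03.

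Other genes of mast cells and basophils, 70 in 6 lists by function, were read beside the members. The array table named 65 of them with 1 symbol, and 41 of these reached the limit on at least 1 array. With LPS 1 of 41 was higher in KO and 0 were lower, and with LPS and XCL1 0 of 39 were higher and 1 was lower. The shares over all genes were 0.965% higher and 1.03% lower with LPS, and 1.67% and 1.84% with XCL1 added, so these counts are near the background. With XCL1 none of 40 in WT and none of 41 in KO differed 1.5-fold, where 0.527% and 1.02% of all genes did. These counts are near the background too. The median genotype difference of the genes tested was -0.0050 with LPS alone and -0.05 once XCL1 was added, beside -0.05 and -0.04 over all genes.

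The granule proteases of mast cells were dim as a group. Of 12 genes of granule proteases and carriers, 8 were below the limit on all arrays, among them the tryptases Tpsb2 and Tpsab1 and the chymases Cma1 and Mcpt4, with Mcpt4 at 2.75 to 2.98 and Tpsb2 at 4.54 to 4.88. Cma2, a chymase-family gene, gave 4.88 and 5.45 in WT and 5.54 and 5.90 in KO, and its difference of 0.66 with LPS is the 1 gene of these lists that was higher. Its WT signal in that pair was below the limit. Ctsg, cathepsin G, gave -0.15 and -0.12 in KO minus WT. Srgn, the proteoglycan core of granules in many blood cells, was bright at 11.43 to 11.61.

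Surface receptors held both dim and bright genes. Basophil and mast cell receptors such as Cd200r3, Mrgprb2, Enpp3 and Ccr3 were below the limit on every array, at 4.04 to 4.83. Ccr3, the eotaxin receptor, had the widest range of these, with 4.10 and 4.14 in WT and 4.43 and 4.83 in KO. Fcer1g, the gamma chain that the IgE receptor shares with other Fc receptors, gave 10.61 and 10.48 in WT and 10.66 and 10.18 in KO. Of the IL-3 receptor genes, Il3ra encodes the alpha chain, and Csf2rb and Csf2rb2 encode beta chains. All 3 had both KO arrays above both WT arrays, as did 18.8% of all genes, with Csf2rb2 at 0.51 and 0.29, Il3ra at 0.11 and 0.46 and Csf2rb at 0.18 and 0.09, all under 1.5-fold. Cd63, a membrane protein of lysosomes and granules that is not restricted to these cells, gave 7.38 and 7.62 in WT and 6.83 and 6.97 in KO. It was lower in KO with LPS and XCL1 (-0.66) and under 1.5-fold with LPS (-0.55).

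Of 7 histamine genes other than Hdc, 4 reached the limit, and none of these differed 1.5-fold in any comparison. The share of all genes that did was 0.527% to 3.51%, depending on the comparison, so this is near the background. Slc18a2, which loads histamine into vesicles, gave 5.75 and 5.46 in WT and 5.64 and 5.67 in KO, with overlap. The histamine-degrading enzymes Hnmt and Aoc1 were below the limit throughout, at 4.20 to 4.54. Hrh2, a histamine receptor, gave 6.24 and 6.34 in WT and 6.06 and 5.96 in KO, differences of -0.18 and -0.38 in the opposite direction to Hdc. The receptor genes Hrh3 (0.11 and -0.21) and Hrh1 (0.31 and -0.10) had mixed signs. Both Hrh1 signals with XCL1 were below the limit.

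Signalling genes downstream of the IgE receptor and Kit reached the limit in 12 of 13 cases, and none differed 1.5-fold in any comparison. The share of all genes that did was 0.527% to 3.51%, depending on the comparison. Inpp5d, an inositol phosphatase that restrains such signalling, gave -0.40 and -0.37 in KO minus WT, and the adaptors Lcp2 and Lat gave -0.14 and -0.25, and -0.23 and -0.14. The kinase Fyn gave 0.28 and 0.21. Kitl, the ligand of Kit, was below the limit on every array, at 4.65 to 4.87.

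Of 10 transcription factors other than Gata2, 8 reached the limit, and Gata1 and Cebpa did not. Fli1 gave -0.54 and -0.26 in KO minus WT, Mitf, a regulator of mast cells and pigment cells, -0.28 and -0.15, Bhlhe40 -0.12 and -0.22, and the GATA cofactor gene Zfpm1 0.11 and 0.14. Among 10 lipid mediator and type 2 cytokine genes 6 reached the limit. Il13 gave 0.47 and 0.23, Il5 0.16 and 0.05, and Alox5ap, which serves leukotriene synthesis, -0.31 and -0.20, none of them 1.5-fold. The signals of Il13 (5.97 to 6.45) and Il5 (5.70 to 5.85) were dim. They lay below the 99th percentile of the olfactory receptor probe sets, 6.88. Il4 and Il9 were below the limit on every array.

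Marker genes of some other cells were higher in KO together with Hdc. Of 11 red cell and megakaryocyte markers 7 reached the limit. Of these, 5 were higher in KO with LPS alone and 3 once XCL1 was added, against 0.965% and 1.67% of all genes. The medians of these markers were 0.82 and 0.55, beside -0.05 and -0.04 over all genes. Their summed un-logged signal was 877 and 939 in WT and 1379 and 1382 in KO, and Klf1, Epor, Pf4 and Ppbp were below the limit on every array. Slc4a1, the red cell anion exchanger, gave 6.12 and 6.32 in WT and 7.62 and 7.67 in KO. Car1 differed by 1.29 and 1.29, Rhag by 1.06 and 1.00, Car2 by 0.63 and 0.55 and Tfrc by 0.23 and 0.22. Gp9, a platelet glycoprotein gene, differed by 0.82 with LPS alone and by -0.06 once XCL1 was added. The WT signals of Rhag were below the limit, as was that of Car1 with XCL1. Neutrophil markers reached the limit in 8 of 10 cases. With LPS alone 1 was higher in KO, and 3 were once XCL1 was added, against the same shares of all genes. Their medians were 0.24 and 0.33. Their summed signal was 1184 and 1140 in WT and 1482 and 1702 in KO, S100a8 differing by 0.26 and 1.11, S100a9 by 0.33 and 0.71 and Ngp by 0.42 and 0.38. Mmp8 (0.10 and -0.17) and Mmp9 (0.13 and -0.10) were not above WT in both comparisons, and Ly6g and Retnlg were below the limit throughout. The part of red cell precursors or neutrophils in the Hdc signal was not tested.

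The other marker lists held at most 1 gene past 1.5-fold between the genotypes. Of all genes, 1.99% were past it with LPS alone and 3.51% once XCL1 was added. Of 6 eosinophil markers only Prg2 reached the limit, at 0.13 and -0.14 in KO minus WT, and the summed signal ran from 149 to 166, with Prg3, Epx, Ear6, Siglecf and Ccr3 below the limit. Markers of myeloid and stem progenitors, which share Kit and Gata2 with mast cells, had a summed signal of 1396 and 1316 in WT and 1344 and 1263 in KO. That sum follows mainly Myb, the brightest, at 9.49 to 9.74. The mean log2 signal of the list was 6.14 and 6.075 in WT and 6.15 and 6.12 in KO. Of these markers, 7 of 10 reached the limit and none was 1.5-fold apart. Myb gave -0.11 and -0.15, Mpo 0.14 and -0.05 and Cd93 0.11 and 0.31. Cd34, Meis1 and Hoxa9 were below the limit. All 9 monocyte and macrophage markers reached the limit, with summed signals of 3742 and 3501 in WT and 3797 and 3922 in KO. Ly6c2, the brightest at 11.01 to 11.16, weighs most in these sums. Fcgr1, the high-affinity IgG receptor, was the 1 marker of this list past 1.5-fold, at 1.00 and 1.19. Ly6c2 gave -0.11 and -0.03 and Lyz2 -0.23 and 0.43.

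**Figure D4:**
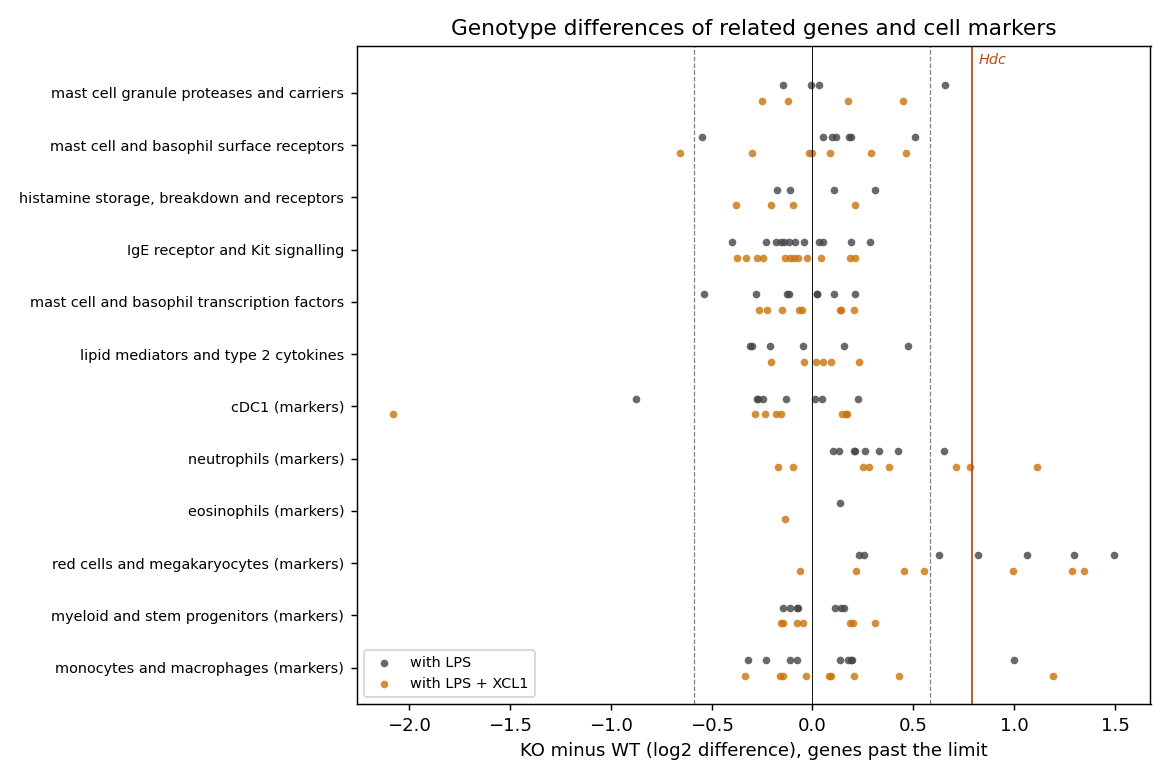
Log2 difference KO minus WT (x axis) of each gene that reached the limit on at least 1 array, in 6 lists of mast cell and basophil genes and 6 lists of cell markers (y axis), for LPS alone (dark) and LPS plus XCL1 (orange). The Hdc difference of 0.79 is drawn as a vertical line and 1.5-fold as dashed lines. All mast cell and basophil genes shown but Cma2 (with LPS) and Cd63 (with LPS and XCL1) lie between the dashed lines, and the red cell markers hold the most genes beyond the right one.

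The 5 genes whose 4 signals followed Hdc most closely, by the root mean square distance between profiles centred on their own mean, were Mx2 (0.04), Hemgn (0.04), Cyp2d34 (0.04), Adap2 (0.05) and Dcpp2 (0.07). Mx2, an interferon-induced GTPase gene, gave 8.72 and 8.63 in WT and 9.44 and 9.48 in KO. Hemgn, a gene of red cell precursors, gave 5.41 and 5.46 in WT and 6.17 and 6.30 in KO. The 4 points describe a profile loosely, and genes with a like difference between the genotypes are bound to come out close. Genes next to Hdc on chromosome 2, looked up after its values were seen, did not differ in the same way. Atp8b4 gave -0.28 and -0.23 in KO minus WT, Gabpb1 0.04 and 0.06, Usp8 -0.05 and 0.06, and Usp50 0.41 and -0.03, while Slc27a2 and Dtwd1 were below the limit.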

How the data were processed

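TRIzol-extracted RNA was measured as biotin-labelled cDNA on MoGene 2.0 ST arrays, per the labels' protocols. The deposited values are log2 gene-level signals made by RMA, per the labels' descriptions; no label or header names the software or the build. RMA equalises the arrays, so a shift of most genes one way cannot be seen.

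GEO's platform annotation listed 25335 of 41345 probe sets, 23521 of them with 1 symbol. Probe sets with several symbols, predicted genes, small RNAs, receptor segments, pseudogenes and olfactory or pheromone receptors were left out. The brightest probe set stood for a gene, which left 17127 genes, 11028 of them past the limit. Gene IDs of the 8 members matched RefSeq (GRCm38.p6).

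Differences between arrays were counted with Python 3.11.15. The counting was run on simulated arrays, where recovery was required only for 3-fold changes, not at the 1.5-fold threshold. The simulated noise was set from the difference between the KO arrays, not from replicates. No test was run. Alternatives were a 2-fold threshold, no limit, a stricter limit (75th percentile, 6.91), cyclic loess (limma 3.58.1, span 0.7, 3 iterations), centring, the mean of probe sets, dim signals raised to the limit, and all symbols kept. Pathway and marker genes were named by rule: up to 4 of each pathway list with the largest same-sign genotype differences, the 3 brightest of each marker list, and those past 1.5-fold in a pair (pathway) or in both genotype pairs (markers). Further list genes were named after their values were seen. The members and lists were chosen with earlier results of these data known.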

Additional observations from a re-analysis of the deposited data

Results flagged for a closer look

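Gata2 stood out because XCL1 went with opposite directions in the 2 genotypes. Its signal was 5.16 in WT with LPS and 4.84 with XCL1 added, but 4.59 and 5.26 in KO. This gives -0.31 in WT and 0.67 in KO. The difference of these effects was -0.98 on the log2 scale. It was not tested, each effect rests on 1 pair of arrays, and all 4 signals lay below the limit of 5.43. With dim signals raised to the limit it is 0 by construction.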

How the results depend on the processing

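Under 8 alternatives the count of members past 1.5-fold changed with the threshold and with the limit on signal. At 2-fold it was 0 with LPS, 0 with LPS and XCL1 and 0 in both genotype comparisons, where Hdc had been the 1 member. With no limit on signal Gata2 was added, as 1 member for XCL1 in KO and 1 for the difference of the XCL1 effects. In every alternative but the 2-fold threshold Hdc was counted in both genotype comparisons, and its difference ran from 0.79 to 0.90 over all settings with LPS and from 0.80 to 0.90 with LPS and XCL1. The sign of its XCL1 differences changed between settings, from -0.05 to 0.02 in WT and from -0.04 to 0.03 in KO. Kit kept its genotype direction, at 0.13 to 0.24 and 0.40 to 0.51. Of 320 member differences under alternatives, 308 moved by less than the SD of that difference over all genes. The other 12 moved by more, all with dim signals raised to the limit, and 0 members past 1.5-fold reversed. Only Hdc, in the 2 genotype comparisons, was past 1.5-fold, so only its differences could be counted as reversed. Many of the 308 could not move. The 2-fold threshold, the changed limits, the mean of probe sets and keeping all symbols leave each member's values as they are. Raising dim signals cannot move Hdc or Kit, so only cyclic loess and centring could change their values. Centring also raised the genes with no overlap from 2 to 3 members. Each member has 1 probe set, so the mean of probe sets changed none of their values. No paired analysis was possible because each group had 1 array. Of the 8 members, 6 were below the limit on 2 or more arrays, so their differences compare dim signals. The cause of changes between settings was not tested.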

Other observations

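The mean centred profile of all 8 members was followed most closely by Phyh, Ung, Tut7, Cbx5 and Ddx6, with root mean square distances of 0.0065 to 0.0087 over the 4 arrays. Their genotype differences lay between 0.10 and 0.13 with LPS and between 0.18 and 0.21 with LPS and XCL1. Averaging the members thus gave a profile with small differences, although Hdc alone differed by 0.79 and 0.80.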
